A study of Mus musculus with 24 samples.

Results

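Quadriceps muscle of mice that had eaten a high fat diet for 28 days was compared with that of mice kept on a low fat diet for the same time, on 12 of the 24 arrays of a study of the muscle transcriptome. The 12 were chosen by their labels alone, as all arrays of day 28, with 6 mice on each diet and 1 array for each mouse. The other 12 arrays came from mice that ate the same diets for 3 days, and they are used below to show where day 28 differed from day 3. All mice were male, of a strain written C56BL/6J in the sample labels and C57BL/6J in the series title, and the labels name no engineered allele. Both day 28 groups were 16 weeks old, and both had been switched at 9 weeks of age to the low fat diet for a run-in of 3 weeks. The low fat group then stayed on palm oil chow with 10% of its energy as fat, and the high fat group received 45%. The day 3 mice were 12 weeks old. Assignment to the diets is described as random, but the day 28 low fat mice carry the numbers 2020 to 2025 and the high fat mice 1751 to 1758. The diet and the set of animals therefore cannot be told apart by these arrays. RNA came from whole frozen muscle, so vessels, connective tissue, resident immune cells and any fat between or around the fibres were measured with the fibres.

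Skeletal muscle fibres burn both glucose and fatty acids. Fatty acids are taken up, bound to coenzyme A, carried into the mitochondrion by the carnitine shuttle and shortened there by beta-oxidation, and nuclear receptors of the PPAR family raise the genes of these steps when fat is plentiful. Fat synthesis runs the other way in the cytosol, from citrate through acetyl-CoA to palmitate, and is driven in fed animals by insulin and carbohydrate through the factors SREBP-1c and ChREBP. Slow-twitch fibres hold more mitochondria than fast-twitch fibres and use separate isoforms of the contractile proteins.

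The arrays carried muscle RNA. The log2 level of Myh4, the fast IIb myosin heavy chain, was 13.18 to 13.28 (median 13.25) on low fat and 13.21 to 13.32 (median 13.28) on high fat, and Acta1, skeletal actin, was at 14.21 to 14.30 (median 14.27) on low fat and 14.27 to 14.30 (median 14.28) on high fat. Any pair of day 28 arrays correlated at 0.980 to 0.995 over all probe sets. Transcripts of nerve sheath were at or below the detection limit set here (0 of 8 genes on the array were tested), as were the T cell gene Cd3e (at most 2.43), the B cell gene Cd79b (at most 2.36) and Lep, leptin (at most 3.23). The number of arrays limits the precision. The control probe pairs that compare the 3' with the 5' part of beta-actin gave log2 ratios of 0.10 to 0.36 on 9 of the 12 arrays. On low fat replicates 4 and 6 and high fat replicate 6 the ratios were -0.19 to -0.14. These arrays are set apart by this value alone, and whether their RNA was of lower quality was not tested. The like pair for Gapdh gave -0.11 and -0.06 on these low fat replicates and 0.02 on high fat replicate 6, against -0.14 to -0.06 on the other 9. Without these 3 arrays and the 1 such array of day 3, 403 genes were called at day 28, 146 of them higher, against 726 and 310 with all arrays. The part of the smaller number of arrays in this fall was not tested. Where the calls in a list described below fall by over 1.5 times without them, that count is given too.

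Of 5793 genes tested with limma (a gene is called at an adjusted p under 0.05), 726 or 12.5% were called at day 28. On the high fat diet 310 were higher, 5.35% of all tested, and 416 were lower, 7.18%. The median log2 change (high fat minus low fat) of all tested genes was 0.01. Rises were mostly small, with a median of 0.41 over the genes called higher, and falls were larger, with a median of -0.68. Over 2-fold changes were found for 36 genes called higher (0.621%) and 136 called lower (2.35%), and over 8-fold changes for 7 and 26. For 417 of the 726 called genes all 6 high fat arrays lay beyond all 6 low fat arrays. Such groups without overlap were found for 8.04% of all tested genes, 3.49% with high fat above and 4.56% with it below.

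**Figure D1:**
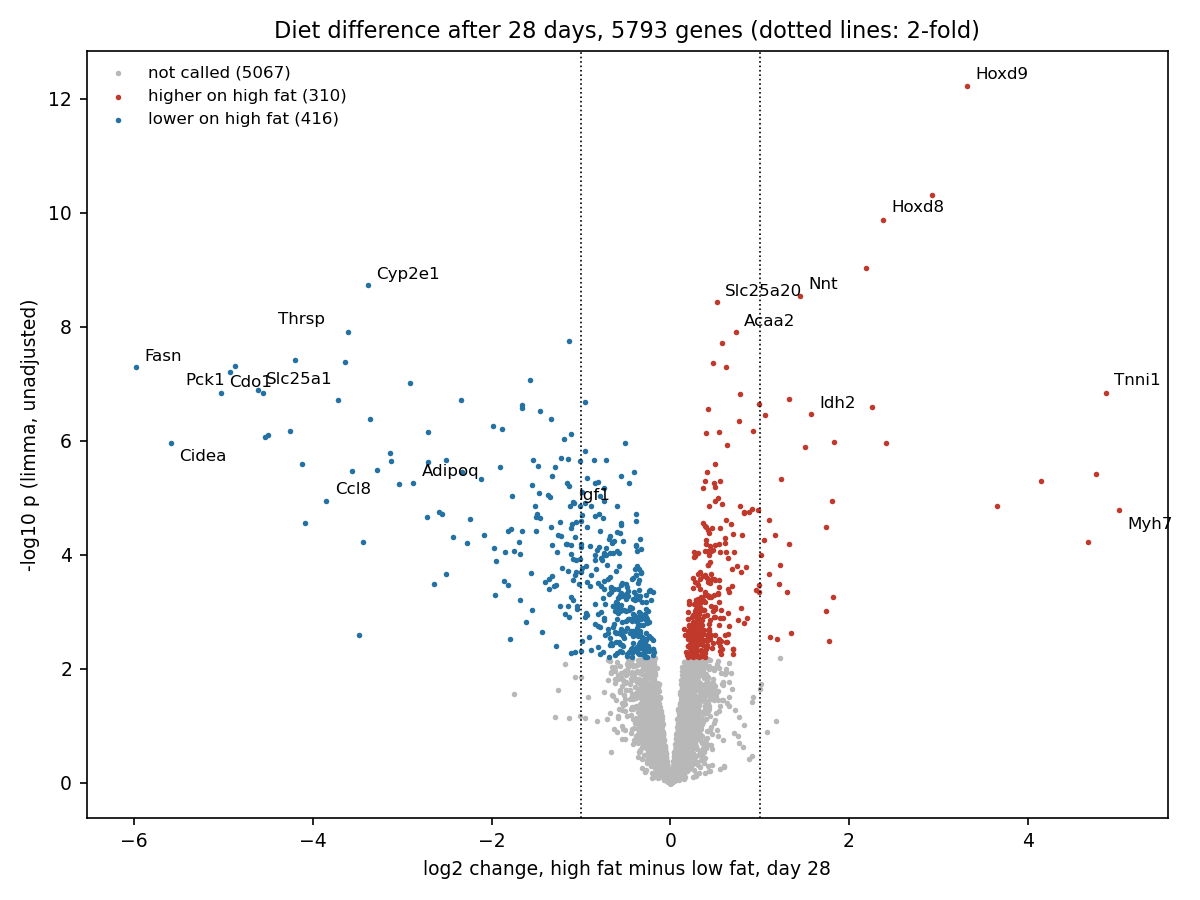
Log2 change at day 28 (high fat minus low fat, x axis) against -log10 of the unadjusted limma p (y axis) for 5793 genes, with the 310 genes called higher and the 416 called lower coloured and 18 genes labelled. Fasn lies farthest left at -5.98 and Myh7 farthest right at 5.02, and more genes lie beyond 2-fold on the left (136) than on the right (36).

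Most genes of fat synthesis fell, Fasn by the most of any gene tested. Of 16 tested genes of fatty acid and triglyceride synthesis, 13 were called lower (81.2%, against 7.18% of all genes) and none higher. Their median log2 change, over all 16, was -1.51. For each of the 13 the 6 high fat arrays lay below the 6 low fat arrays, as for 4.56% of all genes tested. Fasn makes palmitate from malonyl-CoA. Its log2 level was 9.78 to 11.64 (median 10.91) on low fat and 4.04 to 5.79 (median 4.77) on high fat. Its geometric mean was 63.2-fold lower, a change of -5.98 ± 0.75 (log2, SE, adjusted p = 1.75e-05). The lowest low fat mouse thus stayed far above the highest high fat mouse. Slc25a1 carries the citrate that feeds this pathway out of the mitochondrion and stood at 6.47 to 8.85 (median 8.05) on low fat and 2.70 to 3.37 (median 3.23) on high fat. Acly, which splits that citrate into cytosolic acetyl-CoA, changed by -3.65, and Acss2, which makes acetyl-CoA from acetate, by -1.09. Tkt, transketolase of the pentose phosphate pathway, had levels of 6.71 to 8.12 (median 7.59) on low fat and 4.25 to 4.76 (median 4.67) on high fat and a change of -2.91 ± 0.38 (log2, SE, adjusted p = 2.73e-05). Levels near 2 to 3 are below the threshold of 4 used for testing, so the folds of genes that fall so low are on the scale of the authors' background correction.

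Chain elongation and desaturation fell with synthesis. Elovl6, which extends palmitate to stearate, stood at 4.21 to 7.83 (median 6.32) on low fat and 1.60 to 1.98 (median 1.71) on high fat. Scd1, the desaturase that turns stearate into oleate, was at 10.87 to 11.91 (median 11.59) on low fat and 7.88 to 9.39 (median 8.28) on high fat and changed by -3.13 ± 0.50 (log2, SE, adjusted p = 0.000197). Its relative Scd2 changed by -1.04 and Elovl5, an elongase of polyunsaturated chains, by -0.81. In the last steps towards triglyceride, Dgat1 changed by -1.78, Dgat2 by -1.24, both of which add the final acyl chain, and Lpin1, a phosphatidate phosphatase, by -0.45, the smallest change of the 13. Thrsp, a small protein that tracks lipogenesis, stood at 9.30 to 10.67 (median 10.06) on low fat and 5.78 to 6.78 (median 6.31) on high fat with a change of -3.60 ± 0.42 (log2, SE, adjusted p = 8.07e-06). The 3 tested members that were not called were Gpam (0.41 ± 0.15, adjusted p = 0.0859), which starts glycerolipid synthesis, Mid1ip1 (-0.05) and Mlxipl, the gene of ChREBP (0.02). Without the 4 arrays of negative beta-actin ratio 11 of the 16 were called lower, and the calls of Scd2 and Lpin1 were lost.

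The promoters of genes of this group are shown because SREBP-1c acts together with NF-Y, a factor that binds the letters CCAAT. The 250 bases before the RefSeq start of 4 of the genes called lower are printed 5' to 3' on the gene's strand, from RefSeq's assembly GRCm38.p6, with capitals for CCAAT or its reverse ATTGG and for the E-box CACGTG, which is its own reverse. Fasn lies on the minus strand of chromosome 11, Thrsp on the minus strand of chromosome 7, Slc25a1 on the minus strand of chromosome 16 and Insig1, a brake on SREBP in sterol synthesis, on the plus strand of chromosome 5.
Fasn, chr11:120824548-120824797: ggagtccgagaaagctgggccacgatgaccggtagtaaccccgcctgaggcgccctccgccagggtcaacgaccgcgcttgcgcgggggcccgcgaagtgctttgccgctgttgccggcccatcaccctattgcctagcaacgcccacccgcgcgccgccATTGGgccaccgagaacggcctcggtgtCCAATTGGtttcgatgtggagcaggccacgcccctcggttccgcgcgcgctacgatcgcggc
Thrsp, chr7:97417551-97417800: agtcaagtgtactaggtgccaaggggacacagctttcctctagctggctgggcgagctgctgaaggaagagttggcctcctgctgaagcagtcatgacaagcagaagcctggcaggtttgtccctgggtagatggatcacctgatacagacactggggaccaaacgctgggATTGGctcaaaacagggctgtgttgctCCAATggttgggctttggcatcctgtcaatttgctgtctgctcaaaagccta
Slc25a1, chr16:17928220-17928469: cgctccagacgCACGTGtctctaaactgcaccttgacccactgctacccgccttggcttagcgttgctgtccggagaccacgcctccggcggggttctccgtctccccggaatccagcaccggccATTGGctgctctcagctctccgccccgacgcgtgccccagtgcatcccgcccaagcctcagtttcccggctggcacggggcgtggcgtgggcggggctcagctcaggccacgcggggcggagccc
Insig1, chr5:28071162-28071411: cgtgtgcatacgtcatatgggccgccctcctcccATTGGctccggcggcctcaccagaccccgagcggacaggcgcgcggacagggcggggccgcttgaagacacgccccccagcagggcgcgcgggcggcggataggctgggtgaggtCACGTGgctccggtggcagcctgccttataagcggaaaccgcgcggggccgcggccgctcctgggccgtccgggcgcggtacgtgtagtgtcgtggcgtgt
The Fasn window holds 3 such CCAAT matches, of which a forward and a reverse match overlap in the run CCAATTGG, the Thrsp window holds 2, and the windows of Slc25a1 and Insig1 hold 1 CCAAT match and 1 E-box each. Of the 17 genes of fatty acid, triglyceride and cholesterol synthesis called lower, 13 had a promoter in the table, and 9 of these 13 held CCAAT on either strand and 3 the E-box. Over all 32851 promoters in the table the shares were 33.8% and 6.02% for windows of this length. A match is a stretch of letters, and no factor's binding was measured.

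Genes of fat cells moved with these genes. Of 10 tested adipocyte markers 9 fell (90%, against 7.18% of all genes called lower), with a median of -2.73. The summed linear intensity of the 11 markers on the array was 11264 to 20132 on low fat and 8466 to 10108 on high fat. Adipoq, adiponectin, was at 10.19 to 11.71 (median 11.15) on low fat and 7.19 to 9.32 (median 8.19) on high fat. Retn, resistin, stood at 8.14 to 9.84 (median 9.21) on low fat and 4.16 to 6.20 (median 4.69) on high fat, and Pparg, the nuclear receptor that drives fat cell formation, at 3.74 to 6.27 (median 5.34) on low fat and 2.37 to 3.05 (median 2.83) on high fat. Both groups of Adipoq arrays lay well above the detection limit, and no array of 1 diet reached the other diet's range for these 3 genes. Car3, carbonic anhydrase 3, which muscle fibres make in quantity too, was the exception at 0.28 ± 0.09 (log2, SE, adjusted p = 0.0556), and Fabp4, a fatty acid binding protein that vessels share with fat, changed by -1.19 ± 0.18 (log2, SE, adjusted p = 0.000105). Arxes2, another of these adipocyte markers, changed by -4.93. In whole muscle, fewer cells of a type and less RNA per cell cannot be told apart. The part of these cells in the lower level of the synthesis genes was not tested.

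Lipid droplet genes changed in both directions. Cidea and Cidec, droplet proteins of brown and white fat, changed by -5.59 and -4.50, and Lipe, hormone-sensitive lipase, by -2.59. Bscl2, seipin, needed to form droplets, changed by -1.33 and Plin2, the coat protein of most droplets, by -1.49 ± 0.24 (log2, SE, adjusted p = 0.000228). Plin5, the coat protein of droplets beside mitochondria in oxidative tissue, went the other way. It was at 5.78 to 6.54 (median 6.03) on low fat and 6.65 to 7.03 (median 6.98) on high fat, a change of 0.82 ± 0.15 (log2, SE, adjusted p = 0.000814). Among 15 tested droplet and lipolysis genes it alone was called higher and 9 were called lower (66.7% called, against 12.5% of all genes). Pnpla2, the first lipase of triglyceride breakdown, fell by 0.63, and its activator Abhd5 by 0.38. Ucp1, the uncoupling protein of brown fat, was at 3.02 to 7.47 (median 6.41) on low fat and 2.09 to 2.44 (median 2.22) on high fat, and its call (adjusted p = 0.026) was lost without low fat replicate 3, 5 or 6, at adjusted p of 0.0518, 0.068 and 0.0656. Nrg4, a growth factor secreted by brown fat, was at 3.27 to 6.18 (median 5.42) on low fat and 1.54 to 2.34 (median 1.86) on high fat. Of 5 tested brown fat markers 2 fell, Ucp1 and Cidea (40%, against 7.18% of all genes called lower), with a list median of -0.13. The other 3, Cox8b, Cox7a1 and Ppargc1a, were not called, and 5 more on the array were not tested.

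**Figure D2:**
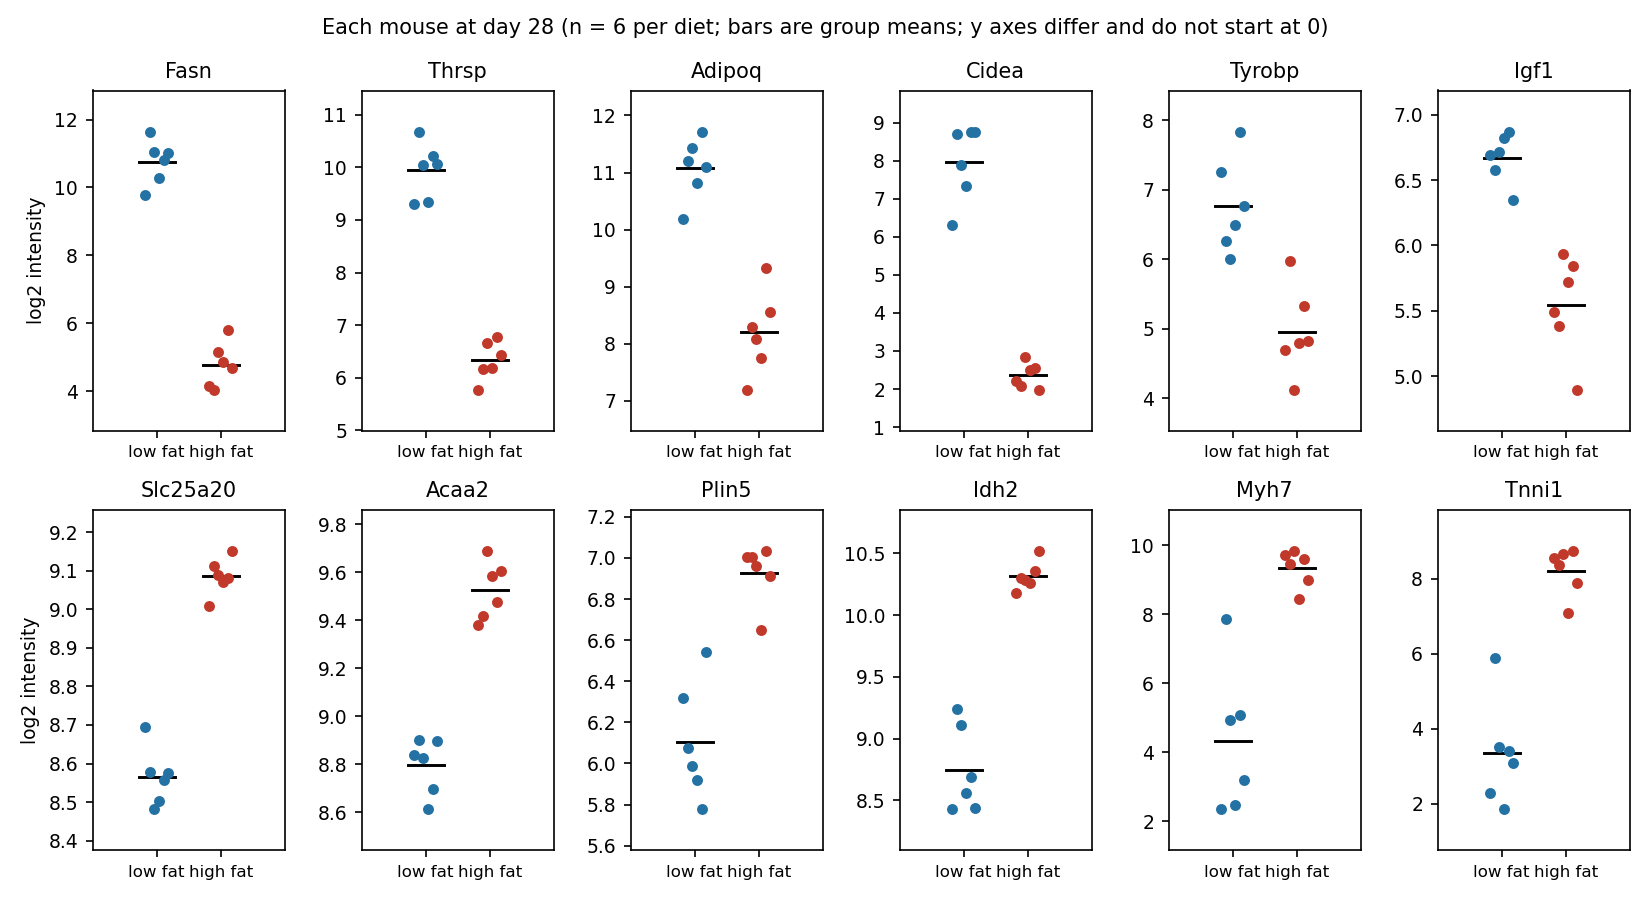
Log2 level (y axis) of 12 genes in each mouse, low fat left and high fat right in each panel, with each point 1 mouse and each bar the group mean. The 6 and 6 mice do not overlap in any of the 12 panels, and the low fat mice spread most for Myh7 (2.36 to 7.86) and Tnni1 (1.86 to 5.89).

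Genes of the carnitine shuttle and of beta-oxidation changed in the direction opposite to fat synthesis and by less, with list medians of 0.28 and 0.31 against -1.51. Those of fatty acid uptake and activation moved down, as fat synthesis did, with a median of -0.37. At the cell surface and in the cytosol none of 11 tested genes rose and 6 fell (54.5%, against 7.18% of all genes called lower). Cd36 and Fabp3, genes of fatty acid uptake and binding, were not among the genes measured, so the list covers uptake only in part. Lpl, lipoprotein lipase, had a change of -0.15 ± 0.10 (log2, SE, adjusted p = 0.384) and Slc27a1, a fatty acid transport protein of muscle, -0.09. Angptl4, a PPAR target that inhibits lipoprotein lipase, was at 7.05 to 8.59 (median 8.11) on low fat and 5.15 to 7.12 (median 6.49) on high fat. It was called lower (-1.62 ± 0.45, adjusted p = 0.0178), but not without high fat replicate 1 (adjusted p = 0.0532) or without the 4 arrays of negative beta-actin ratio (0.116). Acsl5 and Acsl3, ligases that attach coenzyme A to fatty acids, fell by 0.59 and 0.68, and Dbi, a carrier of acyl-CoA, by 0.54.

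Of the 7 tested carnitine shuttle genes 4 rose (57.1%, against 5.35% of all genes called higher) and none fell. Cpt1b, the muscle carnitine palmitoyltransferase that commits fatty acids to the mitochondrion, was at 8.91 to 9.25 (median 9.16) on low fat and 9.58 to 9.70 (median 9.63) on high fat. Slc25a20, the carrier that exchanges acylcarnitine for carnitine across the inner membrane, was at 8.48 to 8.69 (median 8.57) on low fat and 9.01 to 9.15 (median 9.08) on high fat, a change of 0.52 ± 0.06 (log2, SE, adjusted p = 3.05e-06), among the 12 smallest p-values of the comparison. Both ranges were narrow and did not meet. Mlycd, which removes malonyl-CoA, the inhibitor of Cpt1b, rose by 0.46, and Crat, carnitine acetyltransferase, by 0.28. Cpt2, the inner-membrane transferase, had a change of 0.07, with a 95% interval of -0.09 to 0.23.

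Inside the mitochondrion 12 of 18 tested genes of beta-oxidation rose (66.7%, against 5.35% of all genes called higher) and none fell, with a median change of 0.31. The acyl-CoA dehydrogenases take the first step, each for its own chain length, and Acadvl (very long, 0.39), Acadl (long, 0.33) and Acadm (medium, 0.43) rose, while Acads (short) had 0.26 ± 0.09 (log2, SE, adjusted p = 0.0765). Hadha, the alpha subunit of the trifunctional protein, was at 9.44 to 9.76 (median 9.72) on low fat and 9.95 to 10.35 (median 10.02) on high fat. Hadhb, its beta subunit, was not called, with a change of 0.25 ± 0.09 (log2, SE, adjusted p = 0.0844) whose 95% interval of 0.06 to 0.44 includes the change of Hadha. Hadh, which oxidises shorter hydroxyacyl-CoA, rose by 0.27. Acaa2, the thiolase that releases acetyl-CoA in the last step, was at 8.61 to 8.90 (median 8.83) on low fat and 9.38 to 9.69 (median 9.53) on high fat, and its change of 0.73 ± 0.08 (log2, SE, adjusted p = 8.07e-06) was the largest of the 18.

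Unsaturated fatty acids need further enzymes for their beta-oxidation. Decr1, 2,4-dienoyl-CoA reductase, rose by 0.41, Eci1 and Eci2, enoyl-CoA isomerases, by 0.33 and 0.26, and Ech1, a dienoyl-CoA isomerase of mitochondria and peroxisomes, was at 10.82 to 10.99 (median 10.84) on low fat and 11.36 to 11.57 (median 11.42) on high fat, a change of 0.57 ± 0.07 (log2, SE, adjusted p = 1.01e-05). Electrons from the dehydrogenases pass through ETF to the respiratory chain. Etfdh, the membrane-bound oxidoreductase, rose by 0.36, Etfb by 0.28, and Etfa had 0.20 ± 0.07 (log2, SE, adjusted p = 0.0552). The call of Etfb was lost without high fat replicate 3 (adjusted p = 0.0518) and that of Eci2 without low fat replicate 4 (0.0504), and both without the 4 arrays of negative beta-actin ratio. Ehhadh, the bifunctional enzyme of peroxisomes, fell instead and was at 5.64 to 7.27 (median 6.38) on low fat and 4.50 to 5.51 (median 5.17) on high fat. Bdh1 oxidises the ketone body hydroxybutyrate. It was at 6.82 to 7.75 (median 7.07) on low fat and 8.51 to 8.77 (median 8.67) on high fat. Its geometric mean was 2.85-fold higher, whereas Oxct1, the next enzyme of ketone use, had -0.14 ± 0.14 (log2, SE, adjusted p = 0.553).

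**Figure D3:**
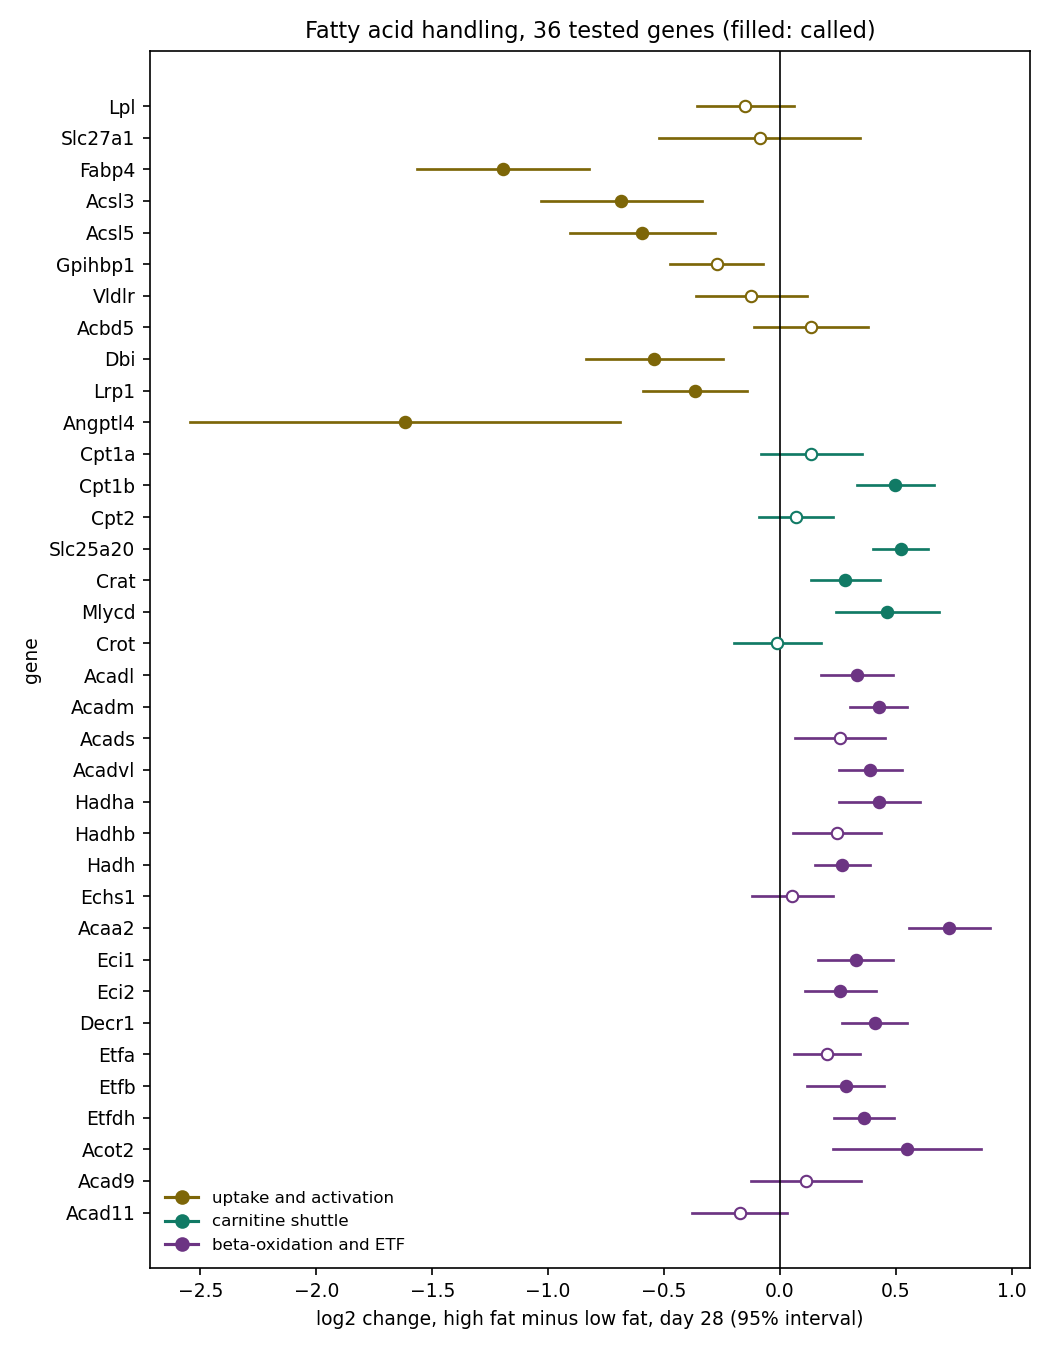
Log2 change at day 28 (x axis, high fat minus low fat) with its 95% confidence interval from limma for 36 tested genes of fatty acid handling (y axis), ordered from uptake through the carnitine shuttle to beta-oxidation and electron transfer, filled where called. Called genes of uptake lie left of 0 and called genes of the shuttle and of beta-oxidation right of 0, up to Acaa2 at 0.73.

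Known regulators and targets of this pathway moved unevenly. Of 13 tested PPAR targets 6 rose and 2 fell (61.5% called, against 12.5% of all genes). Slc25a34, an orphan carrier of the mitochondrial membrane, was at 4.74 to 5.21 (median 4.88) on low fat and 5.82 to 6.30 (median 6.02) on high fat, and Acot2, a mitochondrial thioesterase, rose by 0.55. Pdk4, the kinase that shuts pyruvate dehydrogenase when fat is used, had a change of -0.14 ± 0.11 (log2, SE, adjusted p = 0.493), and Ucp3, the uncoupling protein of muscle, -0.45 ± 0.20 (log2, SE, adjusted p = 0.154). Pdk2, a kinase of the same complex, rose by 0.26. Esrrg, an orphan receptor that drives oxidative genes, was at 4.33 to 4.54 (median 4.45) on low fat and 5.08 to 5.39 (median 5.28) on high fat, a change of 0.80 ± 0.16 (log2, SE, adjusted p = 0.00147). Ppara, the fatty acid receptor itself, ran over several log2 units on either diet (2.30 to 5.83 (median 4.31) on low fat and 2.33 to 5.91 (median 5.50) on high fat) and was not called, nor was Ppargc1a, the coactivator PGC-1alpha (0.45 ± 0.35, adjusted p = 0.471).

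Genes of the respiratory chain had small changes that were mostly positive, and those of the mitochondrial ribosome a median near the 0.01 of all genes. Of 33 complex I subunits 3 were called higher (9.09%, against 5.35% of all genes), with a median change of 0.07 and 26 positive changes. Of 33 genes of complexes II to V 1 was higher and 2 were lower, with a median of 0.08 and 27 positive changes. At day 3, when 14.9% of all genes were called in either direction, 12 and 11 genes of these lists were called higher and 0 lower. Without low fat replicate 3 the calls in complexes II to V rose from 3 to 5, and without the 4 arrays of negative beta-actin ratio those in complex I fell from 3 to 1. Of 51 genes of the mitochondrial ribosome, 1 was called, at a median of -0.02. Cs, citrate synthase, had 0.12 ± 0.05 (log2, SE, adjusted p = 0.153) and Tfam, the factor that packs mitochondrial DNA, -0.01, with a 95% interval of -0.19 to 0.17. Among genes of the citric acid cycle and neighbouring enzymes Idh2, the NADP-dependent isocitrate dehydrogenase of mitochondria, stood out. It was at 8.43 to 9.24 (median 8.62) on low fat and 10.18 to 10.52 (median 10.29) on high fat. The change was 1.57 ± 0.22 (log2, SE, adjusted p = 5.43e-05). Of the 20 tested genes in this list 3 were higher and 4 lower (35% called, against 12.5%). Without the 4 arrays of negative beta-actin ratio 1 was higher and 4 lower. The lower ones included Aco1 and Idh1, of the cytosol, and Pcx, pyruvate carboxylase, which are not enzymes of the cycle itself. Mb, myoglobin, was at 12.81 to 13.05 (median 12.95) on low fat and 13.25 to 13.39 (median 13.35) on high fat, with no array shared between the ranges, and Mfn2, which fuses mitochondria, rose by 0.28.

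Several genes that fell are known as the form of an enzyme made in tissues other than muscle, a set chosen after their values were seen and given as a description. Pygl, liver glycogen phosphorylase, was at 6.45 to 8.35 (median 7.90) on low fat and 3.53 to 4.21 (median 3.99) on high fat, while Pygm, the muscle form, had 0.07. Pfkl, liver phosphofructokinase, changed by -1.09 and the muscle form Pfkm by 0.07. Cox6a1 and Cox8a, the widely expressed subunits of cytochrome oxidase, changed by -1.08 and -0.74, and their muscle counterparts Cox6a2 and Cox8b by 0.12 and 0.12. Pcx, pyruvate carboxylase, was at 7.98 to 8.82 (median 8.64) on low fat and 6.48 to 6.91 (median 6.63) on high fat, and the cytosolic enzymes Aco1 and Idh1 fell by 0.84 and 0.59. The muscle forms named were not called. The adipocyte markers given above fell on the same arrays, and their part in these falls was not tested.

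The 12 largest rises without overlap included the slow fibre genes Myh7, Tnnt1, Myl3, Tnni1, Tnnc1, Myl2 and Atp2a2. Of 13 tested slow fibre genes 10 rose (76.9%, against 5.35% of all genes called higher) and none fell, with a median of 2.42. Myh7, the slow myosin heavy chain, was at 2.36 to 7.86 (median 4.08) on low fat and 8.45 to 9.84 (median 9.53) on high fat. Its geometric mean was 32.4-fold higher, a change of 5.02 ± 0.92 (log2, SE, adjusted p = 0.000759). Low fat levels of Myh7 and of Tnni1 reached below the threshold of 4 used for testing. The folds of such genes are on the scale of the authors' background correction. Tnni1, slow troponin I, was at 1.86 to 5.89 (median 3.25) on low fat and 7.08 to 8.74 (median 8.46) on high fat, and Atp2a2, the calcium pump of slow fibres, at 6.88 to 8.44 (median 7.40) on low fat and 9.36 to 10.21 (median 9.93) on high fat. The low fat mice spread far more widely than the high fat mice for these 3 genes. Even so, the highest low fat mouse stayed below the lowest high fat mouse for all 10 genes called, as for 3.49% of all genes tested. The slow light chains Myl2 and Myl3 rose by 3.66 and 4.67, and the slow troponins Tnnc1 and Tnnt1 by 4.15 and 4.77. Smtnl1, a smoothelin-like protein, rose by 1.24, and Myoz2, a calsarcin of slow fibres, by 1.75. Csrp3 (95% interval 0.15 to 1.84, adjusted p = 0.123), Ankrd2 (0.23) and Actc1, cardiac actin (-0.30), were not called.

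Fast fibre genes had changes with a median near 0. Of 16 tested, only Myh2, the heavy chain of type IIa fibres, which are fast and oxidative, was called, at 11.70 to 12.55 (median 11.98) on low fat and 12.94 to 13.18 (median 13.02) on high fat, and its call was lost without the 4 arrays of negative beta-actin ratio. The median of the 16 was 0.03, and -0.01 with quantile normalization. Summed over the list, slow fibre genes gave linear intensities of 3277 to 5593 on low fat and 7793 to 14520 on high fat, and fast fibre genes 151133 to 160265 and 161650 to 166189. Among factors of muscle identity, Tbx15, which favours glycolytic fibres, was at 8.96 to 9.19 (median 9.10) on low fat and 8.51 to 8.84 (median 8.71) on high fat, and Nfatc1, a calcineurin target that supports slow fibres, rose by 0.31. Myl4, the embryonic and atrial light chain, was at 2.70 to 3.13 (median 2.88) on low fat and 3.92 to 4.70 (median 4.19) on high fat, and Chrna1, the acetylcholine receptor subunit, rose by 0.78. The part of the fibre difference in the higher level of the oxidation genes was not tested.

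**Figure D4:**
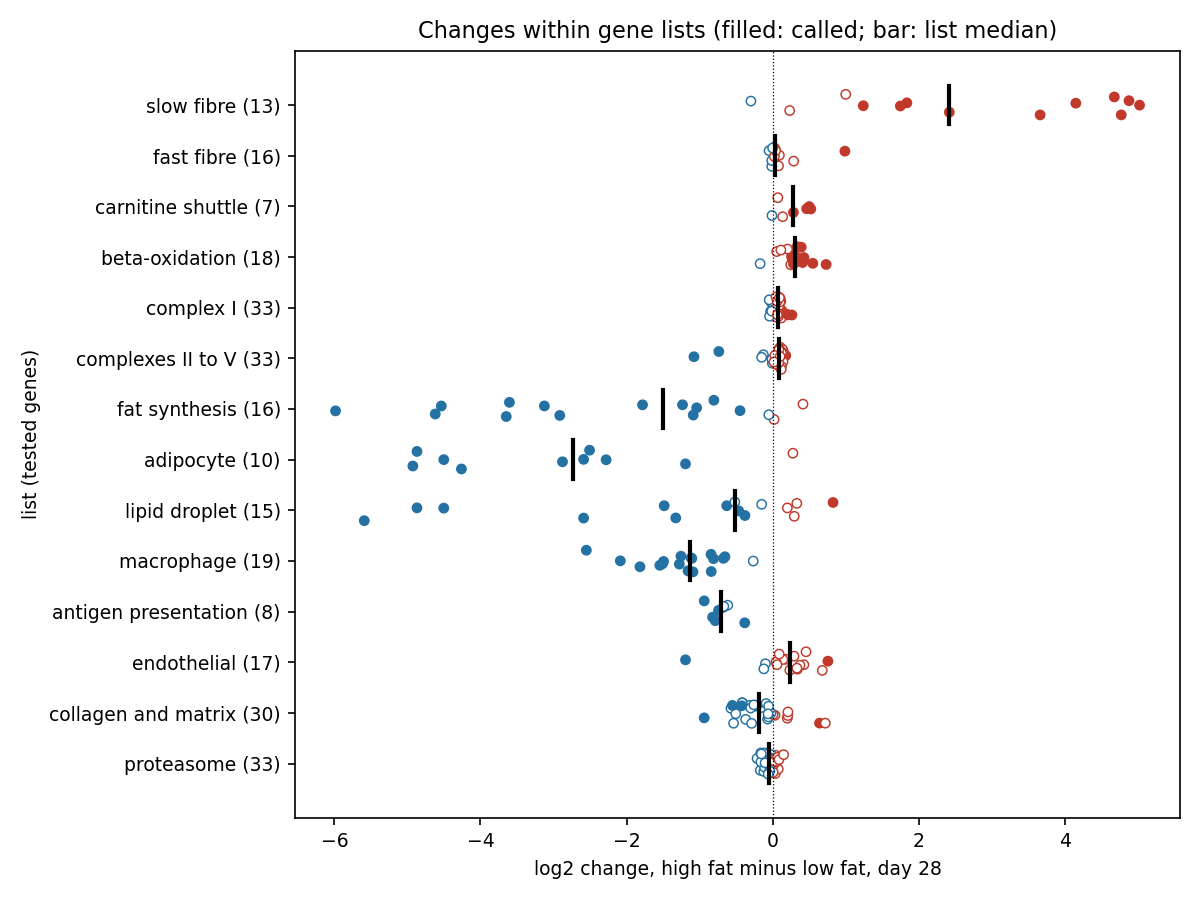
Log2 change at day 28 (x axis, high fat minus low fat) of each tested gene in 14 lists (y axis), filled where called, with a bar at the list median. Slow fibre genes lie right of 0 with a median of 2.42, fat synthesis and adipocyte genes left of 0 with medians of -1.51 and -2.73, and complex I genes crowd near 0 with a median of 0.07.

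Glycolysis and glycogen genes were called at a share near that of all genes (14.3% for each list, against 12.5%). Of 14 glycolysis genes 1 rose and 1 fell, the latter being Pfkl above. Ldhb, the lactate dehydrogenase subunit of oxidative fibres, was at 8.03 to 9.00 (median 8.34) on low fat and 9.52 to 9.85 (median 9.66) on high fat, a call lost without the 4 arrays of negative beta-actin ratio. Slc2a4, the insulin-responsive glucose transporter, had -0.08 ± 0.07 (log2, SE, adjusted p = 0.568) with a 95% interval of -0.23 to 0.08, and Hk2, hexokinase of muscle, 0.09. Slc2a1, the transporter of basal glucose uptake, rose by 0.44. In glycogen metabolism Gys1, glycogen synthase, had 0.05, while Gbe1, the branching enzyme, and Stbd1, a glycogen-binding protein, fell by 0.55 and 0.88, calls that were both lost without the 4 arrays. Igf1, insulin-like growth factor 1, was at 6.35 to 6.87 (median 6.70) on low fat and 4.90 to 5.93 (median 5.60) on high fat, and the change of -1.13 ± 0.20 (log2, SE, adjusted p = 0.000664) put all high fat mice below the low fat range. Of 16 tested insulin signalling genes 1 rose and 3 fell (25% called, against 12.5%). The 4 calls became 2 without low fat replicate 5 and 1 without the 4 arrays of negative beta-actin ratio.

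Immune genes fell broadly. Of 19 tested macrophage markers 18 were called lower (94.7%, against 7.18% of all genes) and 1, Lgmn, was not (-0.27 ± 0.22, adjusted p = 0.501), and the median was -1.13. Without the 4 arrays of negative beta-actin ratio 11 of the 19 were called lower, with a median of -1.09. Summed linear intensity over the 24 markers on the array was 2426 to 5451 on low fat and 1442 to 2447 on high fat, so the highest high fat mouse overlapped the lowest low fat mouse. Tyrobp, an adaptor of myeloid receptors, was at 6.00 to 7.84 (median 6.63) on low fat and 4.12 to 5.97 (median 4.80) on high fat. C1qa, C1qb and C1qc, the chains of complement C1q, changed by -1.51, -1.55 and -1.49, and Mrc1 and Cd163, scavenger receptors of resident macrophages, by -1.16 and -1.13. The defining marker Cd68 was not tested, at a median of 3.65 on low fat and 2.07 on high fat, nor was Itgam, at 2.46 and 2.22.

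The chemokine Ccl8 fell in every high fat mouse relative to the low fat range, at 4.49 to 8.23 (median 6.16) on low fat and 2.05 to 3.92 (median 2.17) on high fat. Ccl6 and Ccl9, chemokines of myeloid cells, fell by 2.55 and 2.09. Cxcl12, which stromal and vessel cells make, rose instead, at 5.86 to 6.17 (median 5.90) on low fat and 6.19 to 6.48 (median 6.43) on high fat. Of 8 tested antigen presentation genes 6 fell (75%, against 7.18% of all genes called lower) with a median of -0.71. Of these calls 2 were left without the 4 arrays of negative beta-actin ratio, and 3 without high fat replicate 1, 4 or 6 or low fat replicate 4, 5 or 6, each left out in turn. B2m, the light chain of class I molecules, was at 10.65 to 11.27 (median 10.85) on low fat and 10.01 to 10.48 (median 10.09) on high fat and H2-D1, a class I heavy chain, changed by -0.82 ± 0.17 (log2, SE, adjusted p = 0.00221). Probes of class I genes can bind transcripts of close copies, so single members of that family are uncertain, H2-Q10 (-4.20) included. Of 8 interferon response genes 4 fell (50%, against 7.18% of all genes, and 1 gene without the 4 arrays of negative beta-actin ratio), led by Ifi27 (-1.15 ± 0.18, adjusted p = 0.000194). Ptprc, the pan-leukocyte CD45, had -0.92 ± 0.40 (log2, SE, adjusted p = 0.148).

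Vessel and connective tissue genes had calls in both directions, for the endothelial and matrix lists at a share near that of all genes. Of 17 endothelial markers 1, Vwf, rose and 1, Fabp4, fell (11.8% called, against 12.5%), with a median of 0.23. Fabp4 is also counted above among the adipocyte markers, so the only endothelial fall is of a gene shared with fat. Of the 17 changes 14 were positive and 3 negative. Of 9 smooth muscle and pericyte markers 4 rose (44.4%, against 5.35% of all genes called higher). Quantile normalization called 4 endothelial markers in place of 2, removal of the 4 arrays of negative beta-actin ratio left 1, and the 4 smooth muscle calls became 2 without high fat replicate 5 or low fat replicate 4, and 1 without the 4 arrays of negative beta-actin ratio. Myl9, a smooth muscle light chain, was at 7.33 to 7.58 (median 7.37) on low fat and 7.77 to 8.08 (median 7.99) on high fat. Of 17 fibroblast and tendon markers 4 rose and 3 fell (41.2% called, against 12.5%), and without the 4 arrays 1 rose and 3 fell. Thbs4, a tendon thrombospondin, was at 8.53 to 8.96 (median 8.75) on low fat and 9.09 to 9.46 (median 9.38) on high fat, a change of 0.57 ± 0.10 (log2, SE, adjusted p = 0.000638), and Fmod, fibromodulin of tendon, rose by 0.64, a call lost without the 4 arrays. The falls were those of Gsn, gelsolin, which severs actin (-0.24), and of the matrix proteins Dpt, dermatopontin (-0.49), and Lum, lumican (-0.55). The call of Dpt was lost without low fat replicate 5 (adjusted p = 0.0517) and that of Lum without high fat replicate 2 (0.0645) or low fat replicate 1 (0.0615). Lox, lysyl oxidase, which cross-links collagen, was at 6.14 to 7.15 (median 6.66) on low fat and 5.55 to 6.10 (median 5.69) on high fat. Of 30 collagen and matrix genes 1 rose and 3 fell (13.3% called, against 12.5%), with a median of -0.19. The 4 calls became 2 without high fat replicate 2 or low fat replicate 1, and 8 without low fat replicate 6.

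Genes of sulphur amino acids, antioxidants and amino acid transport were among the falls. Cdo1, which oxidises cysteine, was at 7.37 to 9.12 (median 8.79) on low fat and 2.46 to 5.24 (median 3.33) on high fat, and Csad, the next enzyme towards taurine, at 4.38 to 5.80 (median 5.45) on low fat and 2.74 to 3.57 (median 3.28) on high fat. The transcripts of both enzymes were thus lower in every high fat mouse than in any low fat mouse. Slc6a6, the taurine transporter, had 0.18 ± 0.11 (log2, SE, adjusted p = 0.349). Of 29 antioxidant genes 10 fell (34.5%, against 7.18% of all genes called lower) and none rose. Without the 4 arrays of negative beta-actin ratio 6 fell. Gpx8 changed by -1.66 ± 0.23 (log2, SE, adjusted p = 4.62e-05), Sod3, the extracellular superoxide dismutase, by -1.07, Gpx1 by -0.68 and Gpx3, the plasma glutathione peroxidase, by -0.48. Glul, glutamine synthetase, was at 10.25 to 11.20 (median 10.57) on low fat and 9.26 to 9.67 (median 9.49) on high fat. Slc36a2 and Slc1a5, amino acid transporters, changed by -4.56 and -2.12. Nnmt, which methylates nicotinamide, changed by -1.85 ± 0.39 (log2, SE, adjusted p = 0.00232), and none of the other 9 tested NAD and sirtuin genes was called.

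Among protein turnover genes the calls lay outside the proteasome. limma called none of 33 tested proteasome genes, of which 3 had an unadjusted p under 0.05, and called 1 without high fat replicate 5 or low fat replicate 3 and 1 or 2 under 5 other settings. Of 35 genes of other protein breakdown 2 rose and 3 fell (14.3% called, against 12.5%), and the 5 calls became 8 without low fat replicate 2 and 3 without the 4 arrays of negative beta-actin ratio. Fbxo32, the ubiquitin ligase atrogin-1, had -0.07 ± 0.36 (log2, SE, adjusted p = 0.927). The 3 that fell were the lysosomal cathepsins Ctsb (-0.38), Ctsd (-0.33) and Ctsl (-0.27). Of 18 glucocorticoid targets 5 fell (27.8%, against 7.18% of all genes called lower), and only 2 or 3 were called without high fat replicate 1 or 4 or low fat replicate 4, 5 or 6, or without the 4 arrays. Nfil3, a repressor tied to the clock, fell by 1.18, a call lost without the 4 arrays, and Arntl, the clock activator BMAL1, had -0.14 ± 0.27 (log2, SE, adjusted p = 0.812). Egr1, an immediate early factor, was at 3.48 to 6.31 (median 4.97) on low fat and 6.01 to 7.95 (median 6.73) on high fat, with groups that overlap, and was called higher (adjusted p = 0.00887). Ndrg1, a gene raised by low oxygen, was at 5.15 to 5.60 (median 5.49) on low fat and 6.02 to 6.46 (median 6.22) on high fat.

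Several genes outside the metabolic lists separated the diets sharply. Hoxd8, Hoxd9 and Hoxd10, patterning factors that lie side by side in the Hoxd cluster, changed by 2.38, 3.32 and 2.19. Hoxd9 was at 2.82 to 4.02 (median 3.69) on low fat and 6.75 to 6.94 (median 6.84) on high fat and had the smallest p of the comparison (adjusted p = 3.38e-09). Hoxc6, of another cluster, fell by 0.85. Nnt, the proton-pumping transhydrogenase of the inner mitochondrial membrane, was at 5.98 to 6.86 (median 6.40) on low fat and 7.68 to 8.01 (median 7.97) on high fat, a change of 1.45 ± 0.16 (log2, SE, adjusted p = 2.72e-06). Part of Nnt is known to be deleted in the C57BL/6J substrain and intact in others. Which exons the probes read is not stated, so the probe set does not check the substrain. At day 3 the diets differed by 3.29 for Hoxd9 and by 1.39 for Nnt, and the differences between the days had adjusted p = 0.974 and 0.911.

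Further genes of large change fall outside any list. Cyp2e1, a cytochrome P450 of liver and fat, was at 10.32 to 11.29 (median 10.81) on low fat and 6.81 to 8.29 (median 7.18) on high fat, a change of -3.39 ± 0.35 (log2, SE, adjusted p = 2.11e-06), and Orm1, an acute phase protein, changed by -4.13. Rgcc, a regulator of the cell cycle, was at 8.98 to 9.90 (median 9.64) on low fat and 8.26 to 8.59 (median 8.46) on high fat. Among the rises, Pcp4l1, a small calmodulin-related protein, was at 2.42 to 3.00 (median 2.54) on low fat and 5.12 to 5.98 (median 5.59) on high fat, and Fzd9, a Wnt receptor, at 3.57 to 4.08 (median 3.74) on low fat and 5.37 to 6.38 (median 6.19) on high fat. Myom3, a protein of the sarcomere's M-band, and Mss51, a mitochondrial protein of fast muscle, were chosen after their values were seen and rose by 1.80 and 1.33.

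The diet effect at day 28 was set against that at day 3, for which 861 genes or 14.9% were called, with no array shared between the comparisons. Of the 726 genes called at day 28, 240 were also called at day 3, which is 33.1% of the day 28 genes and 27.9% of the day 3 genes, and 234 of these changed in the same direction. Genes called higher at day 28 had a median change of 0.21 at day 3, and genes called lower -0.28. In the test of the difference itself, 80 genes or 1.38% were called, 36 of them also called at day 28 (25 lower and 11 higher). The slow fibre and oxidation genes had no such call. Myh7 already differed by 5.60 at day 3 and Acaa2 by 0.80. Their changes differed by -0.58 between the days (adjusted p = 0.852) and -0.07 (0.799). Fasn changed by -3.26 at day 3, and the difference of -2.72 was not called (adjusted p = 0.173), nor was that of any other tested fat synthesis gene, adipocyte marker or macrophage marker.

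**Figure D5:**
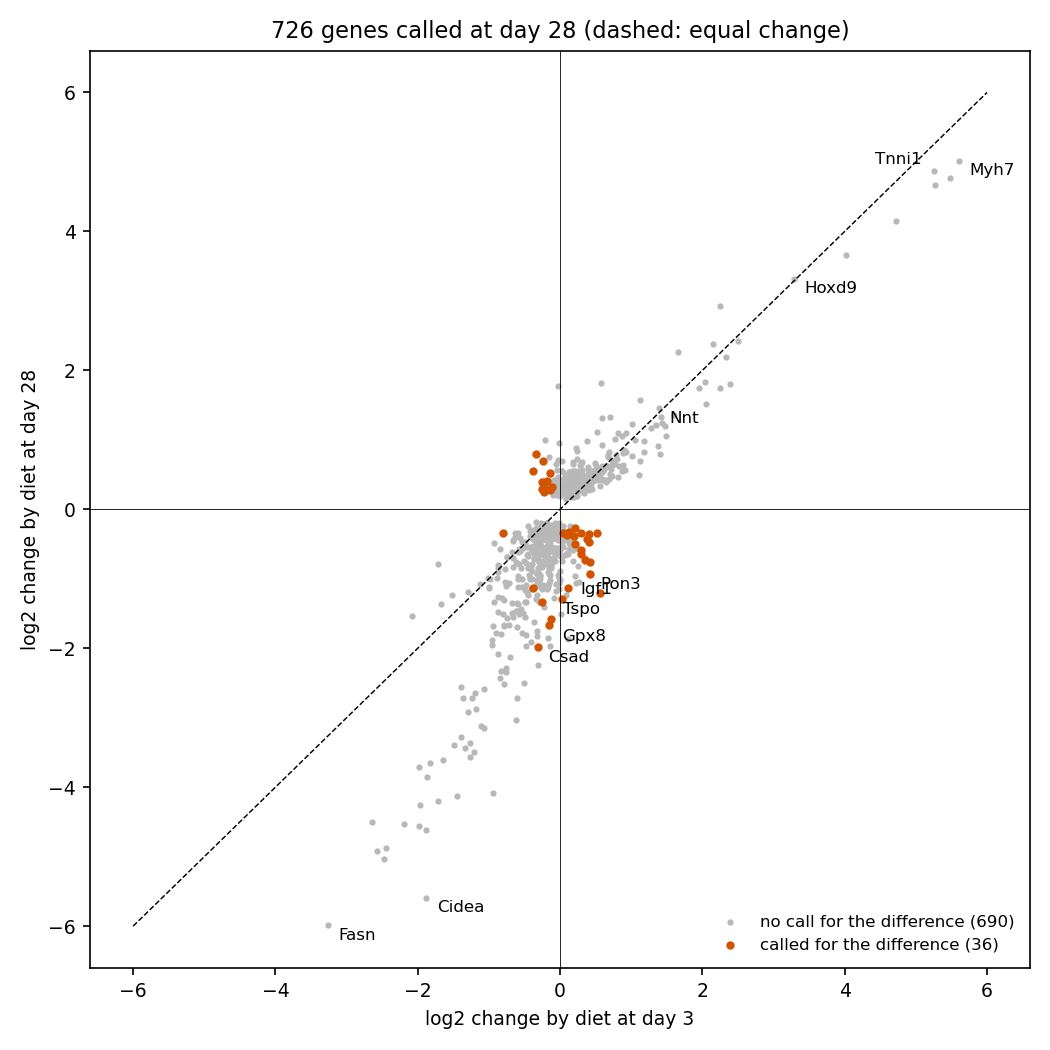
Log2 change by diet at day 3 (x axis) against that at day 28 (y axis), high fat minus low fat, for the 726 genes called at day 28, with the 36 genes called for the difference between the days in colour and a line of equal change. The 240 genes called at both days include 6 of opposite sign, and Fasn lies at -3.26 and -5.98.

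Genes called for the difference between the days were led by Pon3, a lipid-bound paraoxonase. At day 28 it was at 6.53 to 6.98 (median 6.69) on low fat and 5.43 to 6.25 (median 5.79) on high fat, a change of -0.93 ± 0.16 (log2, SE, adjusted p = 0.000316), while at day 3 the change was 0.42, and the difference of -1.36 had adjusted p = 0.00873. Ebp, a sterol isomerase of cholesterol synthesis, changed by -0.76 at day 28 and 0.42 at day 3, with adjusted p = 0.00873 for the difference. Insig1 changed by -1.50 and 0.01, and its difference was not called (0.0603). Of 8 tested cholesterol synthesis genes 4 fell and 1 rose at day 28 (62.5% called, against 12.5% of all genes). The rise was that of Fdft1, squalene synthase (0.25, a call lost without the 4 arrays of negative beta-actin ratio), with the opposite sign at day 3 (-0.22). With a log2 filter of 6, under which the other 4 called genes were not tested, Fdft1 was the only call. Igf1 (0.10 at day 3), Csad (-0.31), Gpx8 (-0.15) and Tspo, a cholesterol-binding protein of the outer mitochondrial membrane (-0.13 at day 3 and -1.57 at day 28), fell at day 28 with differences called at adjusted p = 0.0356, 0.041, 0.0286 and 0.0249. Stat5b, a transcription factor of growth hormone signalling, rose at day 28 (0.39) and fell at day 3 (-0.25), a difference with adjusted p = 0.00873. Of the 10 smallest p-values of the difference, those not called at day 28 were Gpcpd1 (0.16 at day 28, -0.63 at day 3), S100a4 (-0.34 and 0.69), Rrbp1 (-0.19 and 0.42) and Stk11, the kinase LKB1 (0.13 and -0.23). Mxi1, which opposes Myc, rose at day 28 (0.53, against -0.14 at day 3). Pcolce, an enhancer of collagen processing, changed by -0.34 (adjusted p = 0.0319) against 0.52 at day 3, and its day 28 call was lost without high fat replicate 3, 4 or 5 or low fat replicate 1 or 5, at adjusted p of 0.0575 to 0.0855. The count of genes called for the difference moved with single arrays of day 28, from 80 to 19 without high fat replicate 2 and without low fat replicate 5, to 37 without high fat replicate 1 and without high fat replicate 4, and to 50 without high fat replicate 3.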

How the data were processed

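Gene expression was measured on Affymetrix mouse arrays, 1 per mouse, and the labels name separate mice. Per the submitters' processing notes the authors processed the arrays with GCRMA. Neither its version nor a genome build is given in the sources used here. The deposited values are intensities on a linear scale (0.881 to 20520). All log2 values were computed here from the deposited intensity, with no offset.

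Of 16361 probe sets, 64 were controls, 14771 had 1 gene symbol in the platform table, 589 had several and 937 were not listed there, giving 14754 genes, each by its probe set of highest mean. A gene was tested if its log2 value was over 4 on at least 6 of 24 arrays. limma 3.58.1 (R 4.3.3) was fitted to all 4 groups with 20 residual degrees of freedom, with Benjamini-Hochberg adjustment over 5793 genes. Simulated for high fat versus low fat at day 28, the fit called 65 of 100 genes changed by 0.5 (log2), 94 of 100 changed by 1 and 12 of 5593 unchanged, over 5793 genes. The simulation holds no batch.

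Members, gene lists and rules were chosen with earlier results of these data known. Genes were named as the 12 largest rises and 12 largest falls without overlap, the 12 smallest adjusted p, up to 6 called genes of largest change in each list, members with a described place in a pathway, and the 10 smallest p of the difference between days. Some that the rule named are given only within their list's count. Alternatives were the 12 day 28 arrays alone, quantile normalization, array weights, an offset of 16, a log2 filter of 6, no filter, the mean of probe sets, trend and robust moderation, a replicate block and leaving out each day 28 array. Removal of the 4 arrays of negative beta-actin ratio was chosen after seeing the data.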

Additional observations from a re-analysis of the deposited data

Results flagged for a closer look

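Of 384 groups of 6 day 28 mice examined, 1 for each described gene and diet, 26 held a mouse whose gap to its nearest neighbour, divided by the group's range, was above Dixon's 95% critical value for 6 samples. Chance alone flags about 1 in 20 groups. The log2 level stood above the other 5 mice of its diet for Acadl in low fat replicate 6 (10.87, against 10.56 to 10.67), Actc1 in high fat replicate 3 (11.79, against 10.31 to 10.84), B2m in high fat replicate 5 (10.48, against 10.01 to 10.17) and C1qb in high fat replicate 2 (7.56, against 6.58 to 6.91). The same held for Ccl8 in high fat replicate 2 (3.92, against 2.05 to 2.31), Cdo1 in high fat replicate 5 (5.24, against 2.46 to 3.37), Ech1 in low fat replicate 6 (10.99, against 10.82 to 10.88) and Egln3 in low fat replicate 6 (6.40, against 5.40 to 5.76). It also held for Glul in low fat replicate 6 (11.20, against 10.25 to 10.59), Hadha in high fat replicate 6 (10.35, against 9.95 to 10.10), Hoxd8 in high fat replicate 6 (7.68, against 7.19 to 7.34) and S100a4 in high fat replicate 2 (7.11, against 6.71 to 6.85). Likewise above the rest stood Scd1 in high fat replicate 5 (9.39, against 7.88 to 8.42), Scd2 in low fat replicate 2 (7.20, against 6.07 to 6.27) and Slc27a1 in high fat replicate 6 (7.21, against 6.57 to 6.79). The log2 level stood below the other 5 mice of its diet for Acp5 in low fat replicate 1 (5.36, against 6.76 to 7.58), Acsl3 in low fat replicate 4 (5.46, against 6.15 to 6.33), Cox8a in high fat replicate 1 (5.43, against 5.74 to 5.86) and Cxcl12 in high fat replicate 3 (6.19, against 6.37 to 6.48). The same held for Eci1 in low fat replicate 4 (9.11, against 9.40 to 9.56), Eci1 in high fat replicate 1 (9.65, against 9.74 to 9.80), Gpam in low fat replicate 5 (7.38, against 7.93 to 8.07) and Hoxc6 in high fat replicate 6 (2.83, against 3.18 to 3.31). It also held for Pcx in low fat replicate 1 (7.98, against 8.50 to 8.82), Plin5 in high fat replicate 4 (6.65, against 6.91 to 7.03) and Ppara in high fat replicate 6 (2.33, against 4.63 to 5.91).

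For 16 described genes the limma test of the diet effect at day 28 minus that at day 3 was called, with Benjamini-Hochberg adjustment over all genes tested. The day 28 effect was the higher for Fdft1 (0.48, adjusted p = 0.0249), Gpcpd1 (0.78, adjusted p = 0.00873), Mxi1 (0.67, adjusted p = 0.0249), Stat5b (0.64, adjusted p = 0.00873) and Stk11 (0.35, adjusted p = 0.0249). It was the lower for Csad (-1.67, adjusted p = 0.041), Ebp (-1.18, adjusted p = 0.00873), Gpx8 (-1.51, adjusted p = 0.0286), Idh1 (-0.88, adjusted p = 0.0452), Igf1 (-1.23, adjusted p = 0.0356) and Pcolce (-0.86, adjusted p = 0.00873), and likewise for Pon3 (-1.36, adjusted p = 0.00873), Rgcc (-0.75, adjusted p = 0.0457), Rrbp1 (-0.61, adjusted p = 0.0249), S100a4 (-1.03, adjusted p = 0.0249) and Tspo (-1.44, adjusted p = 0.0249).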

How the results depend on the processing

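Of 192 genes described, 154 were called, and 109 of these were tested and called under all 22 alternatives. A further 28 were not tested with a log2 filter of 6 and were called under every other alternative. No called gene changed sign where it was tested. Of the 17 calls lost under at least 1 alternative, 12 were lost without the 4 arrays of negative beta-actin ratio, where 403 genes were called in all, 146 higher and 257 lower. Over 2-fold changes fell from 172 genes to 107 with an offset of 16 and to 101 with a log2 filter of 6, which compress or remove low values. Quantile normalization called 744 genes, 379 higher and 365 lower, so that 50.9% of calls were rises. Leaving out 1 day 28 array gave 593 to 739 called genes, 242 to 323 higher, 342 to 416 lower and 158 to 180 over 2-fold. The test of the difference between the days moved most, from 80 genes to 278 with array weights, 6 without the filter and 19 to 115 without 1 array, and the cause was not tested.

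Replicate numbers do not pair mice in the labels. With the replicate number as a block 727 genes were called, 319 higher and 408 lower, and 176 for the difference between days. Deviations of same-numbered samples correlated at -0.0819 to 0.537, and only replicates 5 and 6 correlated best with their own number.

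The 6 mice per diet, the separate animal number ranges of the diets and signals near background limit the precision, and no value here measures protein or metabolic flux.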

Other observations

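Genes that respond to oxygen and those of amino acid use also moved, and their lists, like the others, were written with earlier results of these data known. Of 13 tested genes of oxygen response and transport 4 rose and 1 fell, with a median change of 0.23, beside 12.5% called and a median of 0.01 over all genes tested. Besides Mb and Ndrg1, the rises were those of Egln1 (0.32 ± 0.08, adjusted p = 0.0131) and Egln3, prolyl hydroxylases that mark HIF for breakdown. Egln3 was at 5.40 to 6.40 (median 5.67) on low fat and 6.01 to 6.82 (median 6.36) on high fat, ranges that overlapped, and its call (adjusted p = 0.0198) was lost without high fat replicate 6 or low fat replicate 5. Car4, the carbonic anhydrase on the vessel surface, was at 4.61 to 5.68 (median 5.01) on low fat and 3.77 to 4.37 (median 4.15) on high fat and fell. Of 30 tested genes of amino acid use 6 fell (20%, against 7.18% of all genes called lower) and none rose, with a median of -0.07. Among these, Bckdhb, a subunit of the enzyme that commits branched-chain amino acids to breakdown, fell by 0.41, and Hibch, of valine breakdown, by 0.35, each with no overlap between the diets.

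Further genes in no list are given as values and were chosen after their values were seen. Cebpa, a factor of fat cell and liver differentiation, was at 5.11 to 7.71 (median 6.94) on low fat and 2.93 to 3.77 (median 3.45) on high fat, with a change of -3.36 ± 0.48 (log2, SE, adjusted p = 6.24e-05). Acp5, a phosphatase of osteoclasts and macrophages, was at 5.36 to 7.58 (median 7.23) on low fat and 2.68 to 4.19 (median 3.24) on high fat, and Lgals3, galectin-3, at 6.61 to 8.75 (median 7.19) on low fat and 4.72 to 5.48 (median 5.15) on high fat. All 6 high fat mice lay below all 6 low fat mice for these 3 genes. Apoc1, an apolipoprotein, changed by -2.71 and Serpina3n, a secreted protease inhibitor, by -3.03. Among rises, Fgf1, a fibroblast growth factor, was at 4.21 to 5.13 (median 4.74) on low fat and 5.36 to 5.96 (median 5.82) on high fat, and Pdlim1, a protein of the cytoskeleton, at 6.50 to 7.12 (median 6.78) on low fat and 7.50 to 8.05 (median 7.89) on high fat. Tln2, talin 2 of the muscle cell's attachment sites, rose by 0.48 and Pitpna, a phosphatidylinositol transfer protein, by 0.63, both with adjusted p = 1.75e-05.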
